A study of Homo sapiens with 6 samples.

Results

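Integrin subunits and laminin chains, the receptors and a main ligand of cell attachment to basement membranes, were compared between glioma cells with and without a knockdown of CPVL. The 31 genes comprise 13 integrin alpha subunits, 8 beta subunits and 10 laminin chains, chosen by name and found by the single Entrez identifier of their probe sets in the authors' deposited annotation. Of these, 30 were measured among 18712 genes in all. The remaining member, ITGB6, was represented only by probe sets that carry more than 1 identifier, which read 3.93 and 3.54 in control cells and 3.82 and 3.47 after knockdown (means of log2 values, n = 3) and were not tested. All cells were of the human glioma line U251 and carried a lentivirus that expresses a short hairpin RNA (shRNA), which is processed to a guide for breaking down transcripts that match it. The group shCtrl received a negative control hairpin and the group shCPVL a hairpin specific for CPVL, which encodes a serine carboxypeptidase, with 3 arrays per group. The labels do not say how long the cells carried the hairpin, whether clones were picked, or whether replicates were separate cultures, so the p-values reflect only variation among the 6 arrays, and that variation could be technical.

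Integrins are receptors of the cell surface, each made of an alpha and a beta subunit, that bind matrix proteins or other cells outside and the actin cytoskeleton inside. Laminins are secreted matrix proteins, each made of an alpha, a beta and a gamma chain, and are main components of basement membranes. In brain they lie mostly around blood vessels, and glioma cells use laminin-binding integrins to attach to and move along them.

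The promoters of a laminin receptor pair, ITGA6 and ITGB1, and of a pair of laminin chain genes, LAMB3 and LAMC1, are shown because the first pair was called lower and the second pair higher after knockdown. Each sequence is the 250 bases before the RefSeq gene start (GRCh38.p14), read 5′ to 3′ on the strand of the gene. Capitals mark matches to GGGCGG, a GC box, or to GGAATG, the core letters that TEAD factors recognise, on either strand. The ITGA6 window lies at chr2:172427086-172427335, plus strand, the ITGB1 window at chr10:32958231-32958480, minus strand, that of LAMB3 at chr1:209652426-209652675, minus strand and that of LAMC1 at chr1:183023170-183023419, plus strand.
ITGA6: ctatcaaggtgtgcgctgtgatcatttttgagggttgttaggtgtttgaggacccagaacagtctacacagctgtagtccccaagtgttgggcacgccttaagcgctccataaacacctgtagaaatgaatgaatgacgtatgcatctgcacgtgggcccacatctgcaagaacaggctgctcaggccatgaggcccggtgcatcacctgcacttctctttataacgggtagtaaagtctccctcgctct
ITGB1: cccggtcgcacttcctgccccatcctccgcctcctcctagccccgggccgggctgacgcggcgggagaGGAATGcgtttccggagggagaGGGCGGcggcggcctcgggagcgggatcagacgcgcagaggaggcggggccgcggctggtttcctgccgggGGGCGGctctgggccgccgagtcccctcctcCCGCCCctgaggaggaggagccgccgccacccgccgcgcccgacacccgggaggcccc
LAMB3: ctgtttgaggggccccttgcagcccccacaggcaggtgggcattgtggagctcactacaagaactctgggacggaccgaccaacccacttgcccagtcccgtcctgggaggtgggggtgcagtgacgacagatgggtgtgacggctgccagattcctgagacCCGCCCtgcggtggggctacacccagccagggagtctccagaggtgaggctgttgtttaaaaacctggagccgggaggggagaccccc
LAMC1: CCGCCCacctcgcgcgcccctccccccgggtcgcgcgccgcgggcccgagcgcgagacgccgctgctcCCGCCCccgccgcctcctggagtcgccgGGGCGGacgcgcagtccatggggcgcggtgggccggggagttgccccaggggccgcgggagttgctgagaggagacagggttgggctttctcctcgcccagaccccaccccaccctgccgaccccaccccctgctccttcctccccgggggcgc

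The windows differed in these letters. ITGB1 held 3 GC boxes and 1 TEAD match, whose first base is at -182 relative to the gene start. LAMC1 held 3 GC boxes and LAMB3 1, and ITGA6 held no match to any motif searched. The GC content was 50.8% in the ITGA6 window, 78.4% in that of ITGB1, 64.0% in that of LAMB3 and 79.6% in that of LAMC1, against a median of 58.0% over all promoters. A promoter window was found for 23 of the 31 members, and 12 of them held a GC box, against 42.3% of all 27305 promoters. The TEAD letters occurred in 4 member windows (ITGA5, ITGA10, ITGB1 and LAMA2), against 11.9% of all promoters. The AP-1 letters TGANTCA occurred in 1, that of LAMA3, against 6.6%, and the interferon-stimulated response element in 0, against 3.07%. No motif contains another, matches were counted on both strands, and a match is a description of the letters only.

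The knockdown and the arrays were checked first. CPVL read 8.24, 8.39 and 8.18 on the shCtrl arrays and 7.38, 7.25 and 7.21 on the shCPVL arrays. It was lower in every shCPVL array, by 0.99 on the log2 scale (SE 0.07, limma adjusted p = 8.3e-05), which leaves 50.5% of the control signal. Arrays correlated at 0.9974 to 0.9986 within groups and at 0.9918 to 0.9930 between them. Added bacterial RNA, read by 18 hybridisation probe sets as a control, averaged 10.69 to 10.81 in shCtrl and 10.93 to 11.13 in shCPVL, a difference of 0.31 (two-sided exact permutation test, p = 0.1, the smallest that 3 against 3 arrays allow). The single control probe sets differed by 0.16 to 0.41, so the groups also differed in a technical measure. The called members ITGA3, ITGA7, ITGB1, LAMA2 and LAMC1, described below, differed by less than 0.31. The part of this shift in the changes of the members was not tested. The 3′ to 5′ difference of the GAPDH control, a sign of RNA integrity, was -0.055 in shCtrl and -0.063 in shCPVL. Of 12 astroglial and glioma markers limma called 5 lower and 0 higher in shCPVL, beside 11.6% and 8.45% of all genes. At an unadjusted p under 0.05, 6 were lower and 0 higher. The 7 markers that were not called differed by -0.16 to 0.053. The summed signal of the list lay at 15.55 to 15.56 in shCtrl and 15.42 to 15.48 in shCPVL (log2). The highest marker, VIM, read 14.24 ± 0.01 and 14.29 ± 0.02 (SD, n = 3). The markers called lower were GFAP (-1.01), FABP7 (-0.68), SLC1A3 (-0.56), GJA1 (-0.49) and SOX9 (-0.38), named after their values were seen. Their part in the changes of the members was not tested. Of the leukocyte (9), platelet (4), endothelial (6) and epithelial (6) markers, limma called none, and 1, an epithelial one that was lower, had an unadjusted p under 0.05. Their summed signals overlapped between the groups, at 9.31 to 9.38 in shCtrl and 9.20 to 9.39 in shCPVL for leukocytes and at 8.99 to 9.16 and 9.05 to 9.16 for epithelial markers. The endothelial sums were 9.52 to 9.53 and 9.50 to 9.55, and the platelet sums 8.41 to 8.54 and 8.36 to 8.58. The highest members of these lists were ITGAX (7.69 in shCtrl and 7.67 in shCPVL), GP9 (7.29 and 7.31), KDR (8.37 and 8.32) and CLDN4 (8.13 and 8.22). All of these lay above the mean of the background probe sets (4.95 and 4.91). The lowest leukocyte marker, PTPRC (3.41 and 3.37), and the lowest epithelial marker, EPCAM (3.35 and 3.22), lay below the background median (3.60 and 3.57). Both were named after their values were seen, and the other leukocyte and epithelial markers lay above that median.

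Across the members, integrin subunits were lower and laminin chains higher where a change passed the test of the deposited values. That fit took 1 chosen probe set per gene and equal array weights. Of 20 measured integrin subunits, 8 fell and 0 rose (9 and 2 at an unadjusted p under 0.05, by limma). Of 10 laminin chains, 3 rose and 0 fell (3 and 0 at an unadjusted p under 0.05). Among these 3, LAMB3 counts through a probe set whose mean over all arrays was the higher only because of shCPVL. Its other probe set was not called. Over all genes 11.6% were called lower and 8.45% higher. At an unadjusted p under 0.05, 3244 of the 18712 genes were lower and 2537 higher. In either direction 11 of 30 members and 20.1% of all genes were called. The median log2 difference was -0.11 for integrins and 0.032 for laminins, beside -0.0070 for all genes. The split between the families depended on the processing. After another quantile normalization ITGA2 was called higher (0.18), and with the median of probe sets ITGA5 was called higher (0.19). With array weights, which called 9761 genes, 5 members were higher and 13 lower, now with ITGA2 (0.17) and ITGA5 (0.24) called higher and ITGA11 (-0.14), ITGAV (-0.11), LAMA1 (-0.24), LAMA3 (-0.16) and LAMC3 (-0.18) called lower. Without shCtrl replicate 3 or shCPVL replicate 1, 1 member was higher, and without shCtrl replicate 3 or any 1 shCPVL array 5 were lower. All of these changes were small. No member reached a fold of 1.5, which 2.51% of all genes reached with a call, and LAMB3 came to 1.45-fold on 1 of its 2 probe sets. Both groups are populations of cells, so fewer cells that express a gene and less RNA per cell cannot be told apart. The groups did not overlap for 8 members that were lower (19.8% of all genes) and 5 that were higher (16.1%).

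**Figure D1:**
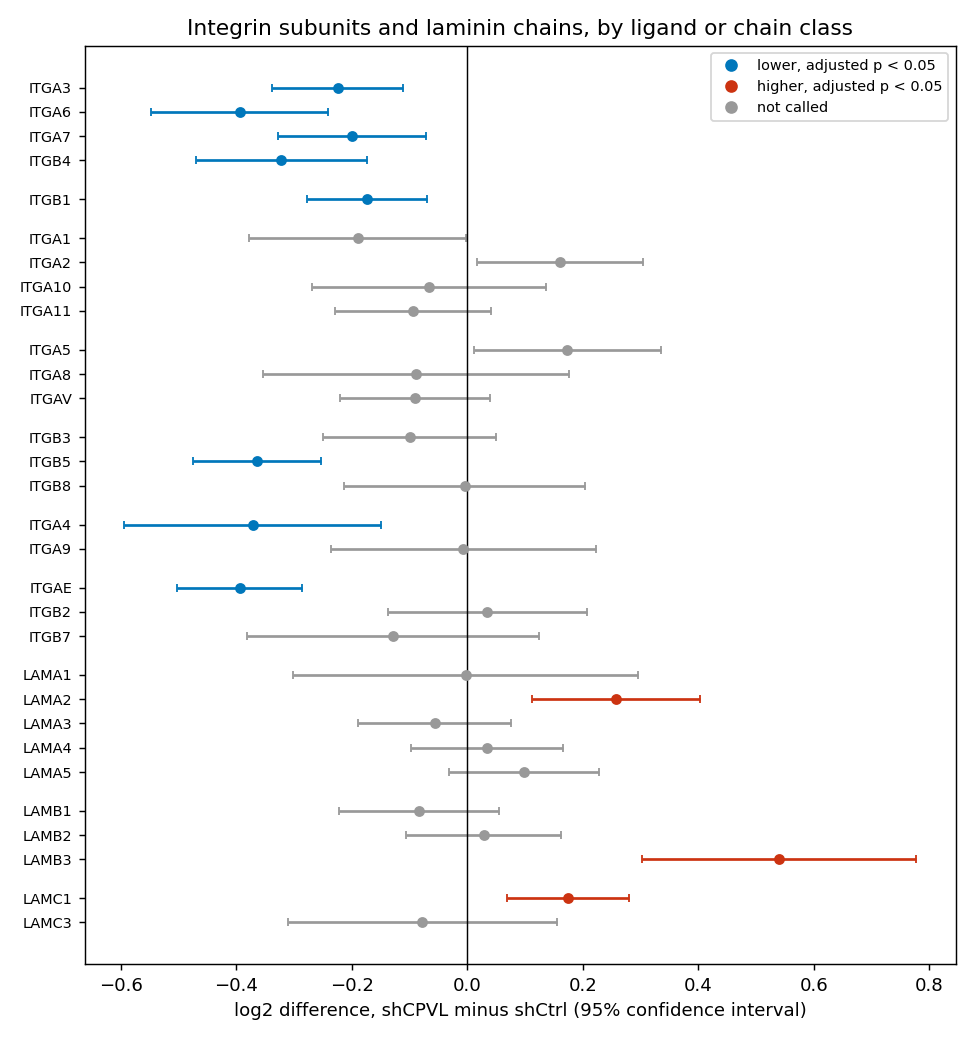
Log2 difference between shCPVL and shCtrl for each of the 30 measured members, grouped by ligand or chain class, with 95% confidence intervals from limma over 6 arrays. The 4 laminin-binding subunits at the top lie between -0.39 and -0.20, while LAMA2, LAMB3 and LAMC1 lie between 0.17 and 0.54.

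The subunits known mainly as laminin receptors all fell, 4 of 4, beside 11.6% of all genes called lower. The classes were chosen with earlier results of these data known. ITGA6 encodes the alpha subunit of the laminin receptors α6β1 and α6β4 and marks glioma stem-like cells in other work. It read 10.60, 10.60 and 10.71 in shCtrl and 10.33, 10.28 and 10.13 in shCPVL. Every shCPVL array was lower than every shCtrl array, and the difference was -0.39 (SE 0.07, limma adjusted p = 0.0045), which leaves 76.1% of the control signal. ITGB4, the partner of ITGA6 in hemidesmosomes, the anchoring junctions of epithelia, read 9.70, 9.73 and 9.54 in shCtrl and 9.30, 9.39 and 9.30 in shCPVL. Its groups were also apart, by -0.32 (SE 0.06, adjusted p = 0.0094). With the median of its probe sets ITGB4 fell by 0.21.

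ITGA3, the alpha subunit of α3β1, read 10.72, 10.81 and 10.79 in shCtrl and 10.57, 10.56 and 10.52 in shCPVL. The groups did not overlap and differed by -0.22 (SE 0.05, limma adjusted p = 0.015). Without shCPVL replicate 2 the call was lost (-0.23, adjusted p = 0.059). ITGA7, best known as the laminin receptor subunit of muscle, read 9.24, 9.09 and 9.10 in shCtrl and 8.97, 8.92 and 8.95 in shCPVL. These groups were apart too, by -0.20 (SE 0.06, adjusted p = 0.039). The ITGA7 call was kept without shCtrl replicate 2 and lost without any other array (-0.15 to -0.22), and another quantile normalization also ended it (-0.18). In the RefSeq gene table ITGA7 overlaps TMT1B, which fell by 0.51 (SE 0.07, adjusted p = 0.0023), and BLOC1S1, which differed by -0.12 (SE 0.07, adjusted p = 0.28). Whether the ITGA7 probe set reads RNA of either was not tested.

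ITGB1 encodes the beta subunit that most laminin, collagen and fibronectin receptors share. It read 12.84, 12.80 and 12.85 in shCtrl and 12.67, 12.64 and 12.65 in shCPVL. All 3 shCPVL arrays were lower, by 0.17 (SE 0.05, limma adjusted p = 0.030). This call too was kept without shCtrl replicate 2 and lost without any other array (-0.16 to -0.18). With the median of its probe sets ITGB1 fell by 0.26.

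**Figure D2:**
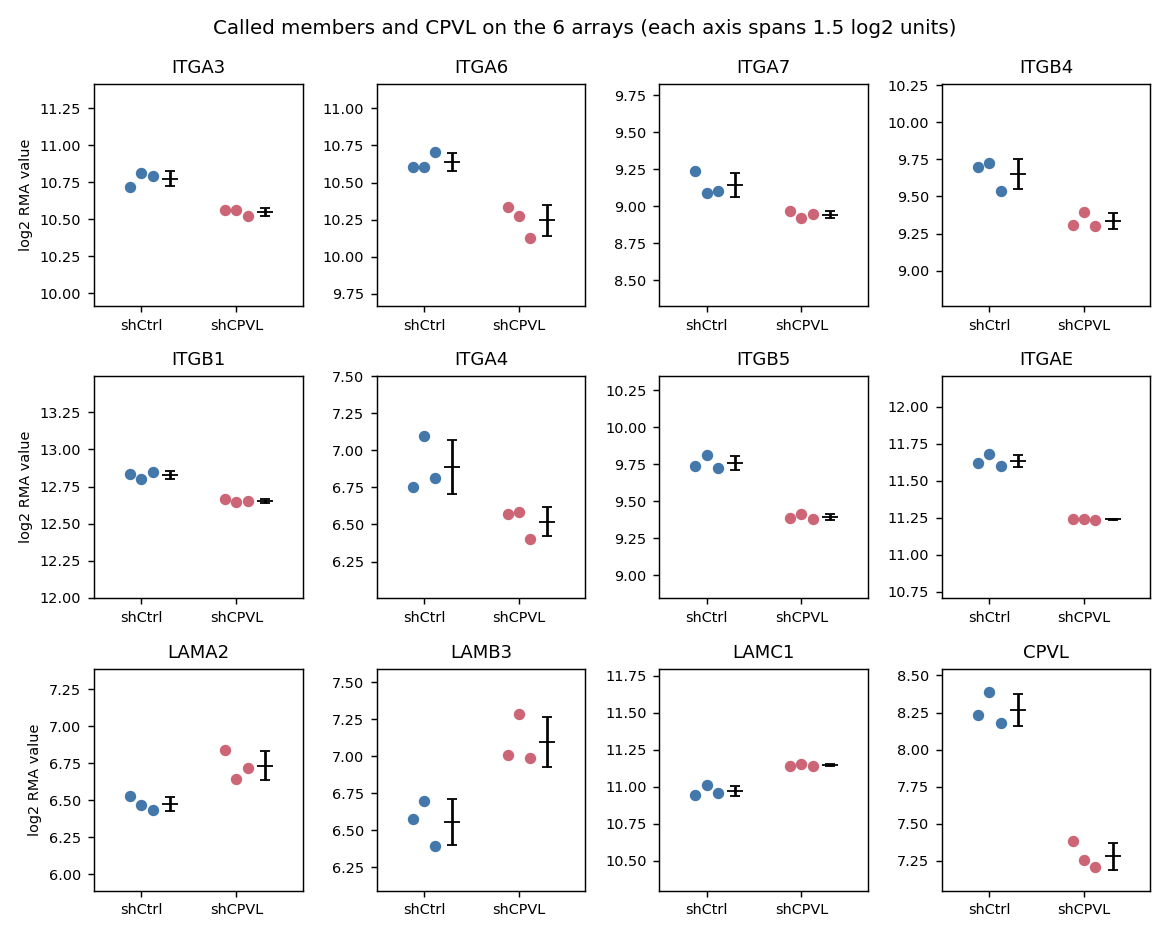
Log2 values on the 3 shCtrl arrays (blue) and the 3 shCPVL arrays (red) of the 11 called members and of CPVL, with mean and SD in black beside each group. Every panel spans 1.5 log2 units, and in each of them the groups do not overlap.

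Subunits that bind other ligands moved less uniformly, but ITGB5 (-0.36), ITGA4 (-0.37) and ITGAE (-0.39) fell more than ITGA3 (-0.22) and ITGA7 (-0.20). Of all 20 measured integrin subunits, 17 differences were negative and 3 positive. The collagen-binding alpha subunits ITGA1, ITGA2, ITGA10 and ITGA11 gave 0 calls of 4 by limma, beside 20.1% of all genes called in either direction. Of these subunits 1 was higher and 1 lower at an unadjusted p under 0.05. ITGA2, part of the collagen receptor of platelets and many other cells, read 8.63, 8.72 and 8.52 in shCtrl and 8.82, 8.79 and 8.73 in shCPVL. The groups did not overlap, but the difference of 0.16 (SE 0.06) did not pass (adjusted p = 0.12). It passed after another quantile normalization (0.18) and with array weights (0.17). ITGA1 was at 4.34 ± 0.05 and 4.15 ± 0.16 (SD, n = 3), under the mean that background probe sets reached in shCtrl (4.95), with a difference of -0.19 (adjusted p = 0.16). Without shCPVL replicate 2 it was called lower (-0.28). ITGA10 (-0.066, adjusted p = 0.71) and ITGA11 (-0.094, adjusted p = 0.34) overlapped between the groups.

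The alpha subunits that bind the RGD sequence of fibronectin or vitronectin gave 0 calls of 3, beside 20.1% of all genes called in either direction. At an unadjusted p under 0.05, 1 was higher and 0 lower. ITGA5, the fibronectin receptor subunit, read 7.34, 7.21 and 7.41 in shCtrl and 7.43, 7.60 and 7.46 in shCPVL. Its groups did not overlap, and the difference was 0.17 (SE 0.07, limma adjusted p = 0.13). The median of its probe sets passed (0.19), as did the fit with array weights (0.24). ITGAV, the common partner of the vitronectin-binding beta subunits, was at 10.99 ± 0.02 and 10.90 ± 0.08 (SD, n = 3), and the groups overlapped (adjusted p = 0.35). ITGA8 was dim, at 4.47 ± 0.22 in shCtrl and 4.39 ± 0.14 in shCPVL (adjusted p = 0.70).

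Besides ITGB1, which also pairs with ITGAV, 3 beta partners of ITGAV were measured, and of these ITGB5 fell and the others did not pass. ITGB5, part of the vitronectin receptor αVβ5, read 9.74, 9.81 and 9.72 in shCtrl and 9.39, 9.41 and 9.38 in shCPVL. The arrays within each group lay close together and the groups were apart by -0.36 (SE 0.05, limma adjusted p = 0.0014). ITGB8, whose dimer with ITGAV releases active TGF-beta from its latent complex, was at 11.55 ± 0.13 in shCtrl and 11.55 ± 0.14 in shCPVL. Its groups overlapped fully, and the 95% confidence interval of the difference ran from -0.21 to 0.20. ITGB3 was at 6.18 ± 0.07 and 6.08 ± 0.09 (adjusted p = 0.37).

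ITGA4, the alpha subunit of receptors for VCAM1 and fibronectin, read 6.75, 7.10 and 6.82 in shCtrl and 6.57, 6.58 and 6.40 in shCPVL. Control replicate 2 stood above the others, and every shCPVL array was below the controls, by 0.37 on average (SE 0.10, limma adjusted p = 0.030). The call held without shCtrl replicate 1 or 2 (-0.44 and -0.27) and was lost without shCtrl replicate 3 or any shCPVL array (-0.31 to -0.41), and array weights gave -0.22. Its relative ITGA9 was at 5.34 ± 0.09 and 5.34 ± 0.20 (SD, n = 3), with overlapping groups, and the median of its probe sets gave -0.27 (adjusted p = 0.053).

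Among the subunits known from leukocytes, ITGAE fell. It encodes the alpha subunit that, with ITGB7, binds E-cadherin and holds T cells in epithelia. It read 11.62, 11.68 and 11.60 in shCtrl and 11.24, 11.24 and 11.23 in shCPVL. The difference of -0.39 (SE 0.05, limma adjusted p = 8.4e-04) was large beside the spread within each group. ITGB7 (6.42 ± 0.12 and 6.29 ± 0.21, adjusted p = 0.52) and ITGB2, the common beta subunit of leukocyte integrins (5.52 ± 0.06 and 5.56 ± 0.13, adjusted p = 0.83), overlapped between the groups. In the RefSeq gene table the mitotic kinase gene HASPIN and the ion channel gene P2RX5 overlap ITGAE. HASPIN fell by 0.24 (SE 0.05, adjusted p = 0.012), and P2RX5 differed by 0.024 (adjusted p = 0.90). Only 1 probe set represents ITGAE, and whether it reads RNA of an overlapping gene was not tested. HASPIN, P2RX5, TMT1B and BLOC1S1 were looked at after the member values were seen.

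Laminin genes that passed the test were all higher in shCPVL, 1 in each chain class. LAMB3, the beta chain of an epithelial laminin that anchors hemidesmosomes, changed on 1 of its 2 probe sets. The chosen one read 6.58, 6.70 and 6.40 in shCtrl and 7.01, 7.29 and 6.99 in shCPVL. The lowest shCPVL array stood above the highest shCtrl array, and the difference was 0.54 (SE 0.10, limma adjusted p = 0.0078). The call of this probe set was kept without any 1 array (0.44 to 0.61). The other LAMB3 probe set averaged 6.64 in shCtrl against 6.73 in shCPVL and differed by 0.096 (SE 0.08, adjusted p = 0.50). It was the brighter of the pair in shCtrl, so the chosen one had the higher mean over all arrays only through shCPVL. With the median of both, LAMB3 rose by 0.32.

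LAMA2, the alpha chain of the laminin of muscle and peripheral nerve, read 6.53, 6.47 and 6.43 in shCtrl and 6.84, 6.65 and 6.72 in shCPVL. The groups did not overlap and differed by 0.26 (SE 0.06, limma adjusted p = 0.023). That call was lost without shCtrl replicate 2 (0.25), shCtrl replicate 3 (0.24) or shCPVL replicate 1 (0.20), and array weights gave 0.15. LAMC1, the gamma chain of most laminins, read 10.94, 11.01 and 10.96 in shCtrl and 11.14, 11.15 and 11.14 in shCPVL. It was higher in every shCPVL array, by 0.17 (SE 0.05, adjusted p = 0.032). The LAMC1 call was kept without shCtrl replicate 2 and lost without any other array (0.16 to 0.18), and it was also lost when its probe sets were replaced by their median (0.18) or limited to those without the suffix x_at or s_at (0.16).

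The other 7 chains overlapped between the groups. LAMB1, a beta chain found in many tissues, was at 10.52 ± 0.06 and 10.43 ± 0.08 (SD, n = 3), and LAMB2, the beta chain of kidney and synapse, was at 8.31 ± 0.07 and 8.34 ± 0.07. LAMA4, an alpha chain of vessel walls, was at 9.51 ± 0.08 and 9.54 ± 0.04, and LAMA5, an alpha chain of mature basement membranes, at 8.81 ± 0.08 and 8.91 ± 0.02. Their adjusted p-values lay at 0.43 for LAMB1, 0.82 for LAMB2, 0.77 for LAMA4 and 0.30 for LAMA5. LAMA1 (5.70 ± 0.26 and 5.70 ± 0.15), LAMA3 (4.57 ± 0.08 and 4.51 ± 0.04) and LAMC3 (6.30 ± 0.08 and 6.22 ± 0.21) were dimmer. LAMA3, like ITGA1 and ITGA8, lay under the mean of the background signal and above its median (3.60 in shCtrl).

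**Figure D3:**
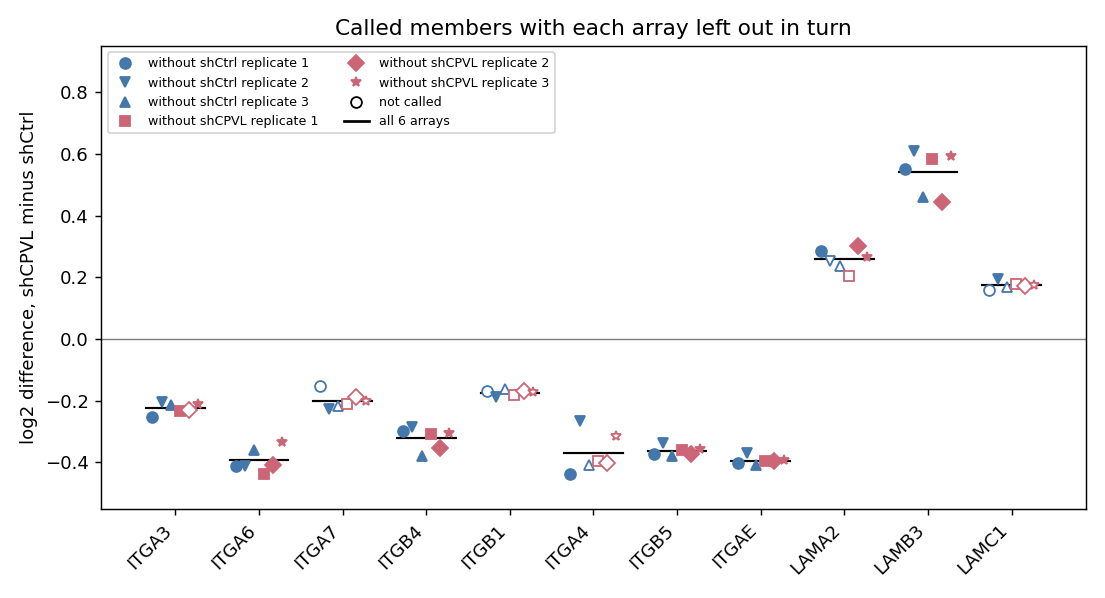
Log2 difference of the 11 called members with all 6 arrays (black bars) and with each array left out in turn (symbols), filled where the adjusted p stayed under 0.05 and open where it did not. ITGA6, ITGB4, ITGB5, ITGAE and LAMB3 are filled throughout, while ITGA7, ITGB1 and LAMC1 are filled for 1 array only.

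Most members were read by more than 1 probe set, which allowed the changes to be compared within genes. The 30 members had 82 probe sets, of which 26 were lower and 4 higher by limma, 36.6% against 19.1% of all probe sets with 1 identifier and a symbol. Among probe sets of all genes, 11% were called lower and 8.15% higher. By family, 14 of 34 alpha subunit probe sets and 11 of 28 beta subunit probe sets fell, and 1 of the 62 integrin probe sets rose. Of 20 laminin probe sets 3 rose and 1 fell. This share of 20% was near that of all probe sets, while 44.1% of alpha and 39.3% of beta subunit probe sets were called. No member had probe sets called in both directions. Probe sets of a gene share its RNA and are not independent. At an FDR under 0.05 the authors' deposited table holds 33 of the same 82 probe sets. The share of all probe sets at that FDR was not counted, so this number has no background beside it.

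For ITGA3, ITGA6 and LAMC1 every probe set pointed the same way. All 3 probe sets of ITGA3 fell (-0.18 to -0.26), as did all 3 of ITGA6 (-0.29 to -0.49). Of the 8 probe sets of ITGB4, 5 fell, and all 8 differences were negative (-0.067 to -0.32). The 5 probe sets of LAMC1 gave 0.16 to 0.18, of which 1 was called.

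For ITGB1 and ITGA4 the probe sets changed unequally, by the limma test of differences within a gene (diffSplice adjusted p = 2.5e-04 for ITGB1 and 0.0074 for ITGA4). That test called 6.48% of the 12183 genes with several probe sets, and 2 of the 19 such members. One ITGB1 probe set read 9.92, 10.03 and 9.83 in shCtrl and 9.53, 9.38 and 9.32 in shCPVL, a difference of -0.52 (SE 0.08, limma adjusted p = 0.0018). The chosen ITGB1 probe set differed by -0.17. In the authors' deposited table, whose genome build is not named, the former is aligned to chromosome 10 from 33189246 to 33247155 and the latter from 33189324 to 33189627, both on the minus strand. A further ITGB1 probe set at 3.55 over all arrays, near the background median, gave a difference of 0.021, within its SE (0.05). Of the 5 probe sets of ITGA4, the 3 brighter ones fell (-0.37, -0.44 and -0.46) and the 2 dim ones, at 3.93 and 3.73 over all arrays, gave 0.021 and 0.091. With the dimmest 40% of probe sets left out, ITGB1 was called by this test and ITGA4 was not. Without shCtrl replicate 3, ITGAV and ITGB4 were called as well, which makes 4 members. ITGA9 was called beside ITGB1 and ITGA4 without shCtrl replicate 1 and also without shCPVL replicate 1.

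Of the members whose chosen probe set was not called, 5 had another that was. For ITGAV, 2 of 5 probe sets fell (-0.31 and -0.32), while the chosen one gave -0.090 and another 0.13. One ITGA9 probe set, at 4.59 over all arrays and so also between the median and the mean of the background, fell by 0.54 while the others gave -0.0069 and -0.095. One of 4 ITGA5 probe sets rose (0.25), and the others gave 0.13 to 0.19. One of 7 ITGB3 probe sets (-0.25) and 1 of 2 LAMB1 probe sets (-0.24) fell.

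**Figure D4:**
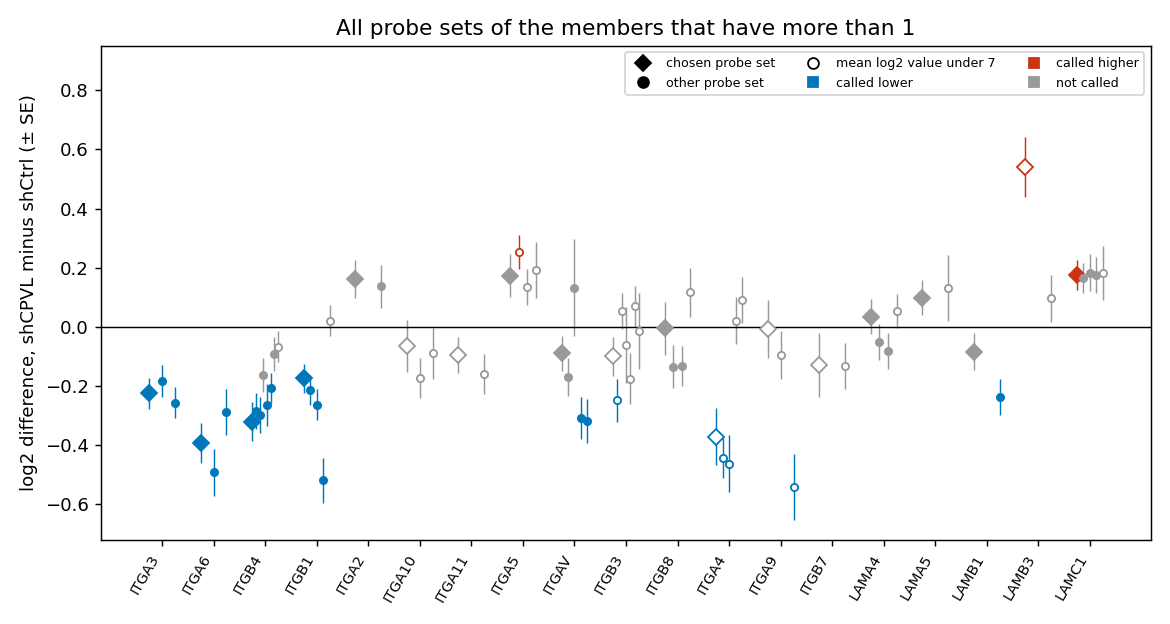
Log2 difference with SE for every probe set of the 19 members that have more than 1. Diamonds mark the probe set chosen for the gene and circles the others, open where the mean log2 value over the 6 arrays was under 7, coloured by call. The probe sets of ITGB1 run from -0.52 to 0.021 and those of ITGA4 from -0.46 to 0.091.

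Genes that work with integrins and laminins held changes in both directions. Of 34 cytoplasmic partners of integrins, 5 rose and 3 fell (median 0.0052), beside 8.45% and 11.6% of all genes. ITGB1BP1, which binds the tail of the beta-1 subunit and restrains its activation, fell by 0.58 (SE 0.05, limma adjusted p = 1.9e-04). KANK2, a talin-binding protein at the rim of focal adhesions, fell by 0.45 (SE 0.05, limma adjusted p = 5.1e-04). FERMT2 encodes kindlin-2, an integrin activator, and rose from 9.92 ± 0.02 to 10.36 ± 0.06 (SD, n = 3, adjusted p = 8.1e-04).

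Of 17 basement membrane and laminin receptor genes, 3 rose and 2 fell (median 0.0047), beside 8.45% and 11.6% of all genes. DAG1, which encodes the laminin receptor dystroglycan, fell from 11.06 ± 0.08 to 10.43 ± 0.01 (SD, n = 3, limma adjusted p = 1.8e-04). AGRN, which encodes the laminin-binding proteoglycan agrin, rose from 11.92 ± 0.02 to 12.64 ± 0.07, but its other probe set, used when those with the suffix x_at or s_at were left out, gave 0.023 (adjusted p = 0.89), and the median of its probe sets rose by 0.37. The syndecan gene SDC4 rose by 0.53 (SE 0.06, adjusted p = 4.8e-04). The collagen IV gene COL4A1 rose by 0.42 (SE 0.05), but the difference was 0.17 and not called both with the median over its probe sets and without those of these suffixes.

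Of 10 membrane partners, 2 rose and 2 fell (median 0.086), beside 8.45% and 11.6% of all genes. SLC3A2, the heavy chain of CD98 that associates with beta-1 integrins, rose by 0.63 (SE 0.05, limma adjusted p = 1.7e-04), and the tetraspanin gene CD82 by 0.23 (SE 0.05), a call lost without shCtrl replicate 1 (0.21) or shCPVL replicate 2 (0.21). The caveolin gene CAV1 fell by 0.25 (SE 0.04, adjusted p = 0.0055) and the tetraspanin gene CD63 by 0.16 (SE 0.04). The CD63 call was lost without any 1 array (-0.15 to -0.17) and without probe sets of those suffixes (-0.092), and 5 of 14 alternatives kept it. Of 21 other integrin ligands, 2 rose and 2 fell (median 0.023), near the same shares of all genes. LTBP1, which holds latent TGF-beta in the matrix, fell from 7.62 ± 0.03 to 6.98 ± 0.03 (SD, n = 3), and by 0.41 without probe sets of those suffixes. The matricellular gene CCN1 rose by 0.30 (SE 0.05, adjusted p = 0.0035). ADAM9 (0.20, SE 0.05) rose and EDIL3 (-0.18, SE 0.05) fell near the threshold. ADAM9 lost its call without any 1 array (0.16 to 0.22), but it rose by 0.31 with the median over its probe sets and by 0.39 without those of the named suffixes. EDIL3 lost its call without any 1 array but shCPVL replicate 1 (-0.15 to -0.20) and with arrays centred on their median (-0.18). In these 4 lists, of 34, 17, 10 and 21 genes, 21 genes were called, 13 without shCPVL replicate 2 and 44 with array weights. Of all 18712 genes, 3757 were called, 2380 without that array and 9761 with array weights.

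**Figure D5:**
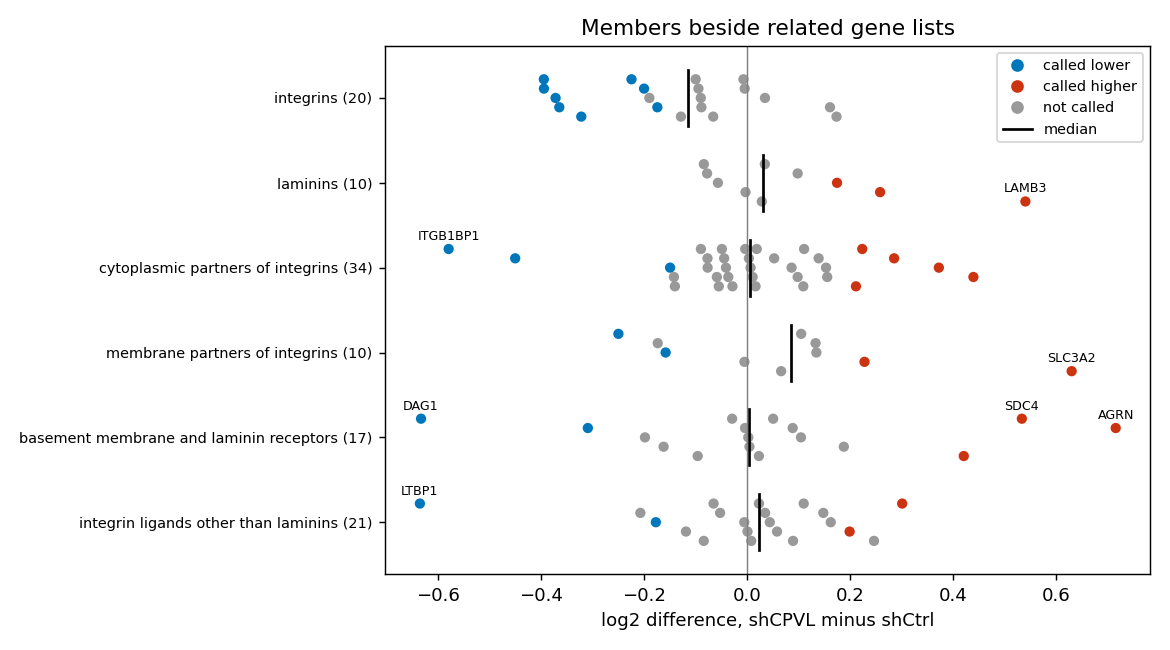
Log2 difference of each integrin, laminin and related gene, one row per list with the number of measured genes, coloured by call and with the median as a bar. Integrin calls lie to the left of 0 and laminin calls to the right, while each related list holds calls on both sides.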

How the data were processed

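RNA of 3 shCtrl and 3 shCPVL arrays was measured, extracted with Trizol and labelled with a GeneChip 3′ IVT Express kit per the labels' protocols. The authors deposited log2 expression values; per the submitters' processing notes these are RMA values, that is background-corrected, quantile-normalized between arrays and summarised per probe set, so changes are relative to the bulk of each array. A version of RMA and a genome build are not given in the sources used here. Beside these values the authors deposited a table with p-values and FDR, log2 fold changes, a linear fold ratio and a signed fold score, per the file headers knockdown against control. Its Entrez identifiers were turned into symbols through an NCBI RefSeq table (GRCh38.p14, names and neighbouring genes only).

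Of 49395 probe sets, 46726 had 1 identifier with a symbol. Each gene took the probe set with the highest mean over the 6 arrays, with no filter on low values. The test was limma 3.58.1 under R 4.3.3 (lmFit, eBayes, two-sided), adjusted by Benjamini-Hochberg over 18712 genes and called at an adjusted p under 0.05; "rose" and "fell" mean called genes. Every member is named, with up to 4 called genes per related list by size of change, and the highest marker of each list. A gene that this rule takes is not reported here. Probe sets were tested likewise, with diffSplice for unequal change within a gene. Groups came from the labels. Alternatives were another quantile normalization, centring, a replicate block, an intensity trend, array weights, other choices of probe set, a filter on dim genes and leaving out each array. Scripts were tested on simulated data. Errors are SD over 3 arrays or the SE of limma, and the number of arrays limits the precision. Members, classes, motifs and lists were chosen with earlier results of these data known. Promoter sequences are those of RefSeq, GRCh38.p14.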

Additional observations from a re-analysis of the deposited data

How the results depend on the processing

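Counts kept within 1.5 times of their value under 2 other normalizations, a replicate block, an intensity trend, the median of probe sets, removal of x_at and s_at probe sets and removal of the dimmest 40% of genes, except for the within-gene test, where that removal left 1 member. Array weights gave 5 members higher and 13 lower, 9761 genes called in all and 44 in the related lists. With 1 array left out, members higher numbered 1 to 2 and lower 5 to 8, all genes called 2380 to 3282, member probe sets 17 to 23, members with unequal probe sets 2 to 4 and related genes 13 to 18. The hybridisation control difference was 0.31 under both scalings.

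Same-numbered arrays deviated with correlations of -0.28, 0.12 and 0.26, and arrays of different numbers with -0.46 to 0.40. Not every array correlated best with its own number. Deviations from a mean of 3 arrays depend on each other, so these values cannot settle whether the numbers pair the arrays. With the replicate block 2 members were higher, 6 lower and 3079 genes called in all. Among members it ended the calls of ITGA7 (adjusted p = 0.058), ITGB1 (0.071) and LAMC1 (0.071), and among related genes those of ADAM9 (0.056), EDIL3 (0.086) and CD63 (0.093).

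Signs turned only for genes that were not called: ITGAV (0.090, median of probe sets), ITGB2 (-0.014, array weights), ITGB8 (0.017, another quantile normalization), ITGB8 (0.037, array weights), LAMA1 (0.0043, another quantile normalization), LAMA4 (-0.067, median of probe sets), LAMB2 (-0.031, array weights), CLDN4 (-0.015, array weights), ITGAX (0.019, median of probe sets), ITGAX (0.020, without x_at and s_at probe sets). With each array left out in turn, the difference ran for ITGA8 from -0.21 to 0.0028, ITGA9 from -0.11 to 0.093, ITGB2 from -0.039 to 0.091, ITGB8 from -0.081 to 0.071, LAMA1 from -0.15 to 0.081, LAMB2 from -0.0095 to 0.052, LAMC3 from -0.19 to 0.014, ITGAX from -0.069 to 0.034, GP9 from -0.026 to 0.091. The cause of these shifts was not tested. The alternatives of the related and marker genes were chosen after seeing the data. Leave-one-out fits rest on 2 arrays in 1 group, and dim probe sets near background limit what can be seen.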
